A study of Drosophila melanogaster with 6 samples.

Results

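UDP-glycosyltransferases (UGTs) were followed in whole second-instar (L2) larvae of *Drosophila melanogaster* that lack pyruvate kinase. The members are all genes of the deposited count tables whose FlyBase symbol is Ugt followed by a number, 35 of 17869 genes, and 33 of them had at least 12 counts over the 6 libraries and were tested. Pyk23/+ controls (3 samples) carry 1 mutated and 1 intact copy of *Pyk*, and Pyk23/31 mutants (3 samples) carry a pair of different small CRISPR/Cas9 deletions that each shift the reading frame in the first coding exon, so both genotypes share the Pyk23 allele. The mutants die in the middle of the same instar. The paper's general protocol collects early L2 larvae of both sexes for metabolomics, and the number of larvae pooled per RNA sample and the way they were selected are not stated for RNA.

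UGTs sit in the membrane of the endoplasmic reticulum and join a sugar from a UDP-activated donor, in insects mostly UDP-glucose, to small lipophilic molecules. The conjugates are more soluble in water and easier to excrete, and the enzymes are known for their part in the handling of plant toxins, insecticides, odorants, pigments and hormones. UDP-glucose is made from glucose-6-phosphate, upstream of the step that pyruvate kinase catalyzes at the end of glycolysis.

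The libraries held 11249487 to 16029304 read pairs assigned to genes on the expected strand, and 3 counts, taken as the floor of detection, corresponded to 0.187 to 0.267 CPM (counts scaled to a common library size). Levels are given as CPM after TMM scaling (trimmed mean of M values), and changes on the log2 scale, mutants over controls (log2 fold change, or log2 change), with the standard error (SE) and the adjusted p of edgeR's quasi-likelihood test, Benjamini-Hochberg adjusted over 11422 genes. *Pyk* itself lay at 465.3, 442.1 and 419.2 CPM in control replicates 1 to 3 and at 53.7, 44.0 and 57.7 CPM in mutant replicates 1 to 3, which matches the labels. Control replicate 3 and mutant replicate 3 each lay apart from the rest of their genotype in 8 Osiris genes of the moulting epidermis, which summed to 2.3, 2.92 and 156.4 CPM in control replicates 1 to 3 and to 2082, 4643 and 167.8 CPM in mutant replicates 1 to 3. RNA of whole larvae cannot tell fewer cells of a type from less RNA per cell. The sources call the samples biological replicates and name independent mating bottles under metabolomics, not under RNA, so the p-values cover no more than the spread between these libraries, which may be technical.

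More UGT genes rose than fell in Pyk23/31 mutants as compared with Pyk23/+ controls. At an adjusted p of at most 0.05, 16 of the 33 tested members were higher in mutants (48.5%) and 3 were lower (9.09%), while 14 did not pass. Over all 11422 genes tested, the corresponding shares were 22.2% higher and 26.0% lower. With a change of at least 2-fold in addition, 5 members were higher (15.2%, against 5.25% of all genes) and 1 was lower (against 2.25% of all genes). Without control replicate 3, these counts were 3 and 2, and the shares of all genes at 2-fold were not counted there. Every mutant library lay above every control library for 19 members (57.6%, against 29.4% of all genes) and below for 3 (against 31.5% of all genes), while the genotypes overlapped for the remaining 11. The median log2 fold change was 0.34 over the members and 0.015 over all genes tested, and 27 of the 33 tested members had a value above 0. Without replicate 3 of both genotypes, 15 members were higher and 3 lower, with 14 and 3 of them shared with the full comparison. Of all genes tested, 24.1% were then higher and 25.7% lower.

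The summed level of all members was 837.1, 837.7 and 793.0 CPM in control larvae against 947.8, 946.6 and 1018 CPM in mutant larvae. The lowest mutant library was thus above the highest control library. The means were 822.6 ± 25.6 CPM over the controls and 970.7 ± 40.7 CPM over the mutants (SD, n = 3 per genotype), a 1.18-fold difference, with a p of 0.1 in an exact two-sided permutation test, the smallest that 3 samples against 3 allow. With library totals in place of TMM scaling, the difference was 1.23-fold. Without the 6 members with the highest level in controls, the sum went from 298.4 ± 6.59 to 393.6 ± 14.8 CPM (SD, n = 3), 1.32-fold.

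**Figure D1:**
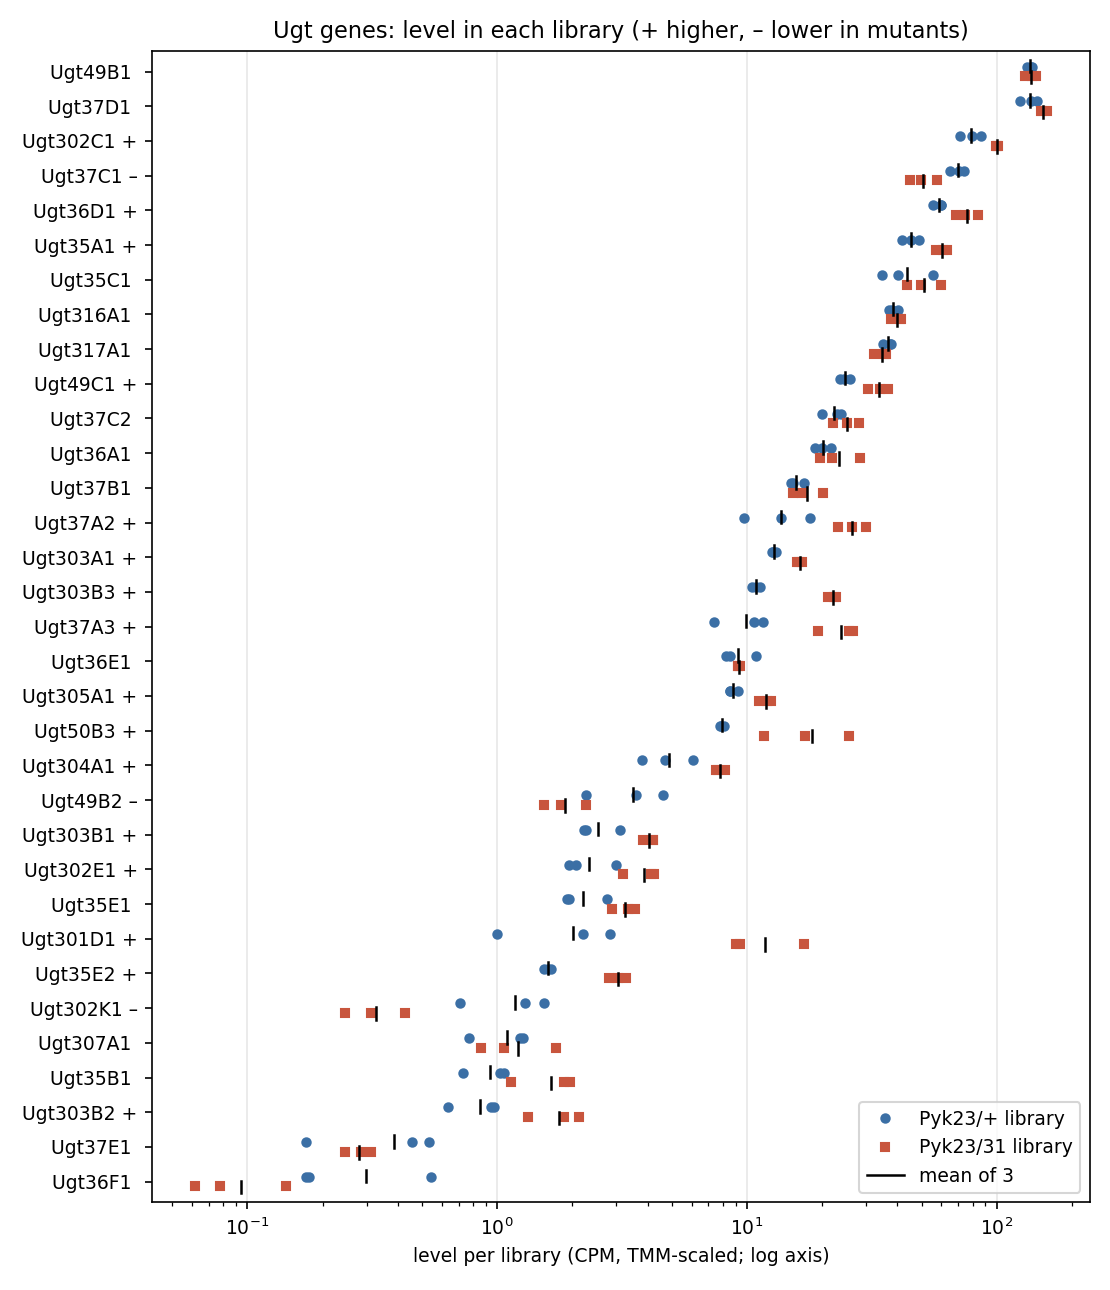
Level of the 33 tested UGT genes in each library, in CPM on a log axis, ordered by the control mean; circles are the 3 Pyk23/+ libraries, squares the 3 Pyk23/31 libraries and ticks the means of 3. Genes marked + were higher and genes marked – lower in mutants at an adjusted p of at most 0.05; the levels run from *Ugt49B1* near 136 CPM to *Ugt36F1* below 1 CPM, and the widest gap between the genotypes is that of *Ugt301D1*.

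Of the 5 members that rose at least 2-fold, *Ugt301D1* changed most. Its raw counts were 25, 33 and 11 in control replicates 1 to 3 and 147, 216 and 132 in mutant replicates 1 to 3, which correspond to 2.21, 2.83 and 1.00 CPM against 9.05, 16.9 and 9.38 CPM. The lowest mutant was above the highest control, and mutant replicate 2 was the highest of all libraries. The log2 fold change was 2.53 (SE 0.439, adjusted p = 0.00596), 5.77-fold, and it ranged from 2.18 to 2.85 over the alternatives, in each of which the gene was called. *Ugt301D1* lies alone on 2L, at 2L:18509560-18513512 on the plus strand.

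*Ugt50B3* belongs to the UGT50 family, which most insects carry as a single gene. Its level was 7.78, 8.07 and 7.90 CPM in control larvae against 17.1, 25.7 and 11.7 CPM in mutant larvae, so that controls were tight and mutants spread out. The log2 fold change was 1.19 (SE 0.295, adjusted p = 0.0201). The call was lost without control replicate 1, 2 or 3 (adjusted p of 0.0729, 0.0756 and 0.0762), with a range of 1.31e-05 to 0.0762 over all alternatives. It spans 2R:5496674-5549543 on the plus strand, by far the longest locus of the family.

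*Ugt301D1* and *Ugt50B3* were both highest in mutant replicate 2, which also held the highest summed level of 11 epidermal and moult markers (5423 CPM). That order was the order of the 8 Osiris genes, whereas the other 3 markers (*kkv*, *ple* and *Ddc*), the ones that passed, summed to 717.4, 780.1 and 967.8 CPM in mutant replicates 1 to 3. All 11 markers were detected, of which 3 were higher in mutants and 8 did not pass, and their sum ranged from 242.6 to 535.7 CPM in controls and from 1136 to 5423 CPM in mutants. In mutant replicates 1 to 3, the marker sum was 2799, 5423 and 1136 CPM. *Ugt50B3* had the same order there, with 17.1, 25.7 and 11.7 CPM, while *Ugt301D1* measured 9.05, 16.9 and 9.38 CPM. In control replicate 3, which had the highest marker sum of the controls, *Ugt301D1* had its lowest level and *Ugt50B3* measured 7.90 CPM. The part of the moult in these changes was not tested.

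*Ugt37A2* and *Ugt37A3* lie side by side on 3R, at 3R:12739642-12741417 on the plus strand and 3R:12741958-12743680 on the minus strand. *Ugt37A3* measured 10.7, 11.6 and 7.35 CPM in control larvae against 26.5, 19.2 and 25.5 CPM in mutant larvae, a log2 change of 1.26 (SE 0.194, adjusted p = 0.00159). *Ugt37A2* measured 13.6, 17.9 and 9.71 CPM in control larvae against 26.2, 23.1 and 30.0 CPM in mutant larvae, a log2 change of 0.94 (SE 0.231, adjusted p = 0.0189). Both genes were lowest in control replicate 3 among the controls and lowest in mutant replicate 2 among the mutants. The call of *Ugt37A3* held in every alternative, whereas that of *Ugt37A2* was lost without control replicate 1 (adjusted p = 0.0708), mutant replicate 1 (0.052) or mutant replicate 3 (0.0509), with a range of 1.54e-05 to 0.103 over all alternatives.

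The summed level of 10 markers of the Malpighian tubules, the renal organs of the larva, was also lowest in control replicate 3 and, among mutants, in mutant replicate 2. Its difference between genotypes came with the urate oxidase gene *Uro*, which measured 63.5, 61.1 and 27.1 CPM in control larvae against 139.2, 107.5 and 145.1 CPM in mutant larvae (log2 change 1.37, SE 0.392, adjusted p = 0.0469). Without *Uro*, the sum of the tubule markers was 305.5, 281.1 and 259.6 CPM in control replicates and 297.0, 278.0 and 292.3 CPM in mutant replicates, which overlap. Of the 10 tubule markers, 9 were tested, of which *Uro*, *SecCl* (log2 fold change 1.33) and *ClC-a* (0.64) were higher and *Irk2* (-0.29) was lower, while *NaPi-T* (-0.11) did not pass. *SecCl* was lowest in control replicate 1 and mutant replicate 1, unlike *Ugt37A2* and *Ugt37A3*. The sum of all 10 ranged from 286.6 to 369.0 CPM in controls and from 385.5 to 437.4 CPM in mutants, and *Best4* was at 0 counts in control and 4 in mutant larvae. The part of the tubules in the change of *Ugt37A2* and *Ugt37A3* was not tested.

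*Ugt303B3*, *Ugt303B1* and *Ugt303B2* form a run of 3 genes on the minus strand at 3R:23532945-23538908, and all of them rose. *Ugt303B3* was the least variable of the UGT genes that rose at least 2-fold, with 10.9, 10.5 and 11.3 CPM in control larvae against 21.1, 22.6 and 22.4 CPM in mutant larvae. Its log2 fold change was 1.02 (SE 0.087, adjusted p = 3.18e-05), the smallest adjusted p of the family, and it was called in every alternative. *Ugt303B2* was low throughout, with 11, 11 and 7 counts in control larvae against 30, 17 and 30 in mutant larvae. The log2 fold change of *Ugt303B2* was 1.05 (SE 0.31, adjusted p = 0.0188), and its call was lost without control replicate 3 (adjusted p = 0.055), mutant replicate 1 (0.0543) or mutant replicate 3 (0.0614), with a range of 0.0147 to 0.126 over all alternatives.

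*Ugt303B1* measured 3.10, 2.23 and 2.27 CPM in control larvae against 4.19, 3.82 and 4.19 CPM in mutant larvae, a log2 change of 0.68 (SE 0.191, adjusted p = 0.0146). Its call was lost without control replicate 2 (adjusted p = 0.0622, range over all alternatives 0.00954 to 0.0688). The neighbouring *CG10175*, which is no UGT gene, was also higher in mutants (log2 fold change 2.27, adjusted p = 0.0385). Of such genes beside or inside the other runs of members, *CG17928* and *ASPP* were higher and *Gyg* was lower. The rest of those tested did not pass. The fourth member of the Ugt303 family, *Ugt303A1*, lies elsewhere on 3R and rose from 12.8 ± 0.218 to 16.2 ± 0.381 CPM (SD, n = 3), a log2 change of 0.34 (SE 0.088, adjusted p = 0.0101).

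**Figure D2:**
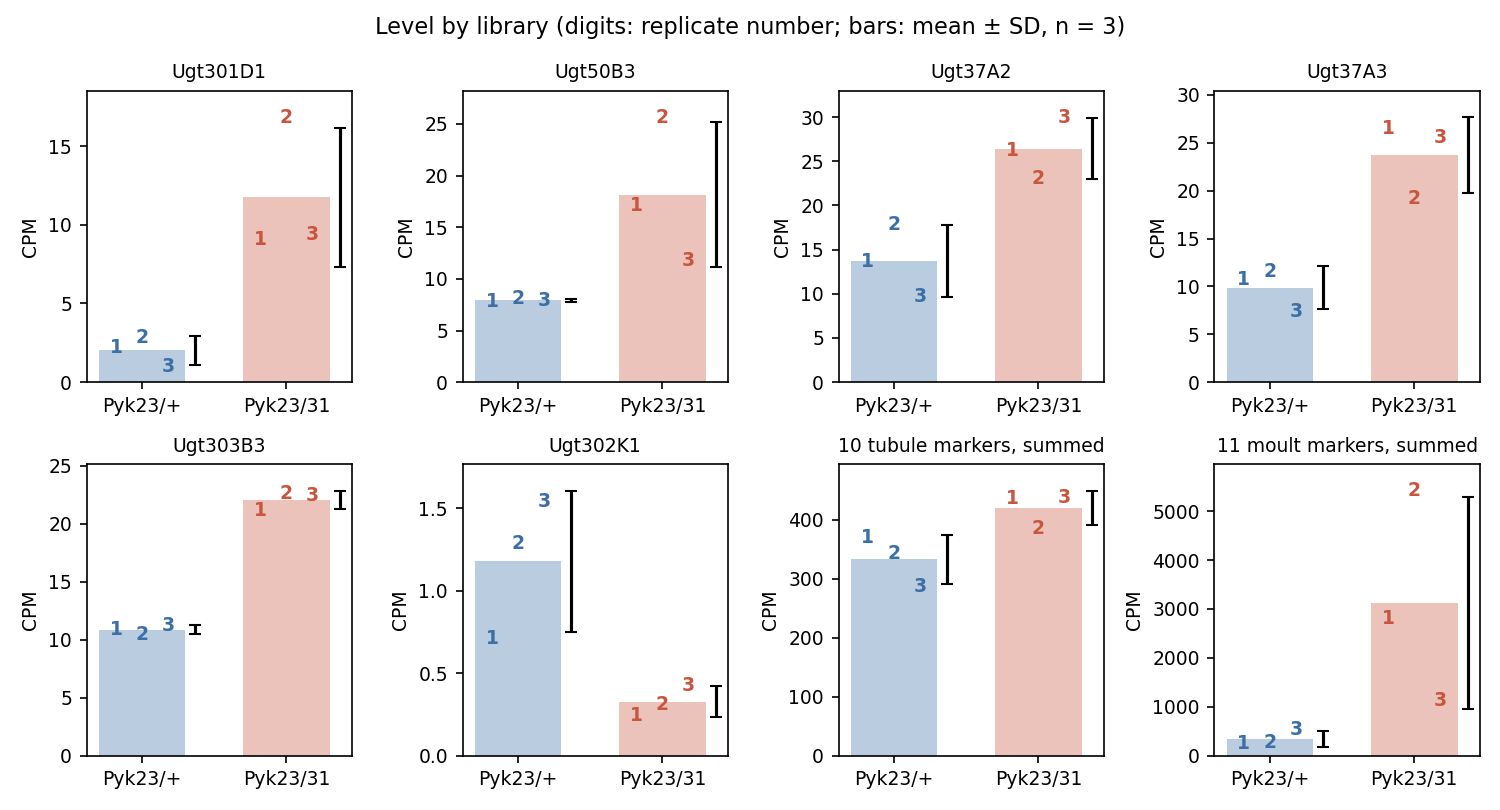
CPM in each library for 6 UGT genes and for the summed levels of 10 Malpighian tubule markers and of 11 epidermal and moult markers, on linear axes from 0; digits are replicate numbers at their value, bars the mean and error bars the SD of 3 libraries. *Ugt301D1*, *Ugt50B3* and the moult markers are highest in mutant replicate 2, *Ugt37A2*, *Ugt37A3* and the tubule sum are lowest in control replicate 3 and, among mutants, in mutant replicate 2, and *Ugt303B3* varies least.

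*Ugt302K1* was the only member that fell at least 2-fold, with 8, 15 and 17 counts in control larvae against 4, 4 and 6 in mutant larvae, or 0.708, 1.29 and 1.54 CPM against 0.246, 0.312 and 0.427 CPM. All mutants lay below all controls, close to the floor of detection. The log2 fold change was -1.83 (SE 0.441, adjusted p = 0.00708). *Ugt302K1* was called in each of the 13 alternatives that tested it, and stricter filtering of low counts removed it.

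A pair of further members was lower in mutants by less than 2-fold. *Ugt37C1*, the most abundant of those that fell, measured 74.1, 70.9 and 64.7 CPM in control larvae against 45.1, 49.5 and 57.6 CPM in mutant larvae, and the genotypes did not overlap. Its log2 fold change was -0.46 (SE 0.098, adjusted p = 0.00358), and the call held in every alternative. *Ugt49B2* measured 4.60, 3.60 and 2.27 CPM in control larvae against 1.54, 1.79 and 2.27 CPM in mutant larvae, so that control replicate 3 lay level with mutant replicate 3. Its log2 fold change was -0.90 (SE 0.282, adjusted p = 0.0237). The call of *Ugt49B2* was lost without control replicate 1 (adjusted p = 0.111), control replicate 2 (0.0638), mutant replicate 1 (0.0881) or mutant replicate 2 (0.0635), with a range of 0.00261 to 0.111 over all alternatives.

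The densest run of the family holds 9 genes within 26885 bases at 3R:11151026-11177910, all of which carried Ugt86D names before. Of these 9, 6 were higher in mutants, 1 (*Ugt302K1*) was lower and 2 did not pass, and every mutant lay above every control for 8 of the 9 (against 22.2%, 26.0% and 29.4% of all genes tested for the first, the second and the last of these). *Ugt35A1* and *Ugt302C1* were the abundant genes of the run. *Ugt35A1*, which is known from a wide range of tissues, measured 48.6, 45.4 and 41.9 CPM in control larvae against 60.9, 56.9 and 63.0 CPM in mutant larvae (log2 change 0.41, SE 0.079, adjusted p = 0.00206). *Ugt302C1* measured 79.3, 86.3 and 71.5 CPM in control larvae against 100.8, 99.3 and 100.1 CPM in mutant larvae (log2 change 0.34, SE 0.078, adjusted p = 0.00539).

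The other genes of the run that rose were of low or moderate level. *Ugt35E2* had 18 counts in each control library against 53, 36 and 43 in mutant larvae (log2 change 0.93, SE 0.199, adjusted p = 0.00362). *Ugt304A1* measured 4.69, 6.09 and 3.81 CPM in control larvae against 8.12, 7.49 and 7.68 CPM in mutant larvae (log2 change 0.67, SE 0.174, adjusted p = 0.01). *Ugt302E1* had 22, 24 and 33 counts in control larvae against 69, 41 and 58 in mutant larvae (log2 change 0.73, SE 0.224, adjusted p = 0.0222). The call of *Ugt302E1* was lost without control replicate 1 (adjusted p = 0.0872), control replicate 2 (0.0796), mutant replicate 1 (0.0794) or mutant replicate 3 (0.0555), with a range of 0.0071 to 0.0872 over all alternatives. The remaining gene of the run that rose was *Ugt303A1*, described above. *Ugt35E1* (log2 fold change 0.56, adjusted p = 0.0528) and *Ugt35B1* (0.80, adjusted p = 0.0618), which is known for its expression in the antenna, did not pass although every mutant lay above every control in both.

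*CG4757*, a gene inside this run that is no UGT, had a log2 fold change of 1.64 and did not pass (adjusted p = 0.0599). *Ugt35C1*, formerly Ugt86Dd and known for its part in the resistance of larvae to nicotine, lies just outside the run, at 3R:11126597-11128328. It measured 34.8, 40.3 and 55.6 CPM in control larvae against 43.5, 49.8 and 59.9 CPM in mutant larvae, with control replicate 3 above 2 of the mutants. The log2 fold change of *Ugt35C1* was 0.23 (SE 0.212, adjusted p = 0.413). Without control replicate 3, it was 0.43 and passed (adjusted p = 0.0408, range over all alternatives 0.0291 to 0.757).

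Away from these runs, 3 moderate increases were tight among replicates. *Ugt36D1* on 2L measured 59.9, 55.6 and 60.01 CPM in control larvae against 68.4, 74.8 and 83.7 CPM in mutant larvae (log2 change 0.37, SE 0.085, adjusted p = 0.00553). *Ugt49C1* on 2R measured 24.4, 25.9 and 23.6 CPM in control larvae against 30.4, 34.1 and 36.6 CPM in mutant larvae (log2 change 0.45, SE 0.088, adjusted p = 0.0022). *Ugt305A1* on 3L measured 9.20, 8.58 and 8.53 CPM in control larvae against 12.4, 11.2 and 12.01 CPM in mutant larvae (log2 change 0.44, SE 0.108, adjusted p = 0.00801). In all 3 genes every mutant lay above every control, and their calls held in every alternative.

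The members were also counted by chromosome arm, and no difference between arms was tested. On 3R, 11 of 16 tested members were higher (68.8%, against 22.9% of the tested genes on 3R) and 2 were lower. On 2L, 2 of 10 tested members were higher (20.0%, against 23.5% of the tested genes there), and on 2R 2 of 5 (40.0%, against 21.9%). Of the 11 members that rose on 3R, 6 lay in the run of 9 genes and 5 in the runs of 2 and 3 genes described above. They share neighbourhoods and cannot be counted as independent of each other. The 3 genes in the run *Ugt37C2*, *Ugt37E1* and *Ugt37D1* on 2L did not pass, and 1 of 3 passed in the run *Ugt36F1*, *Ugt36D1* and *Ugt36E1*. *Pyk* is also on 3R, at 3R:22367536-22372746. The source of the + chromosome of the controls is not stated, so that the loss of *Pyk* and other sequence differences between the crosses cannot be told apart, for members linked to *Pyk* on 3L and 3R or elsewhere.

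**Figure D3:**
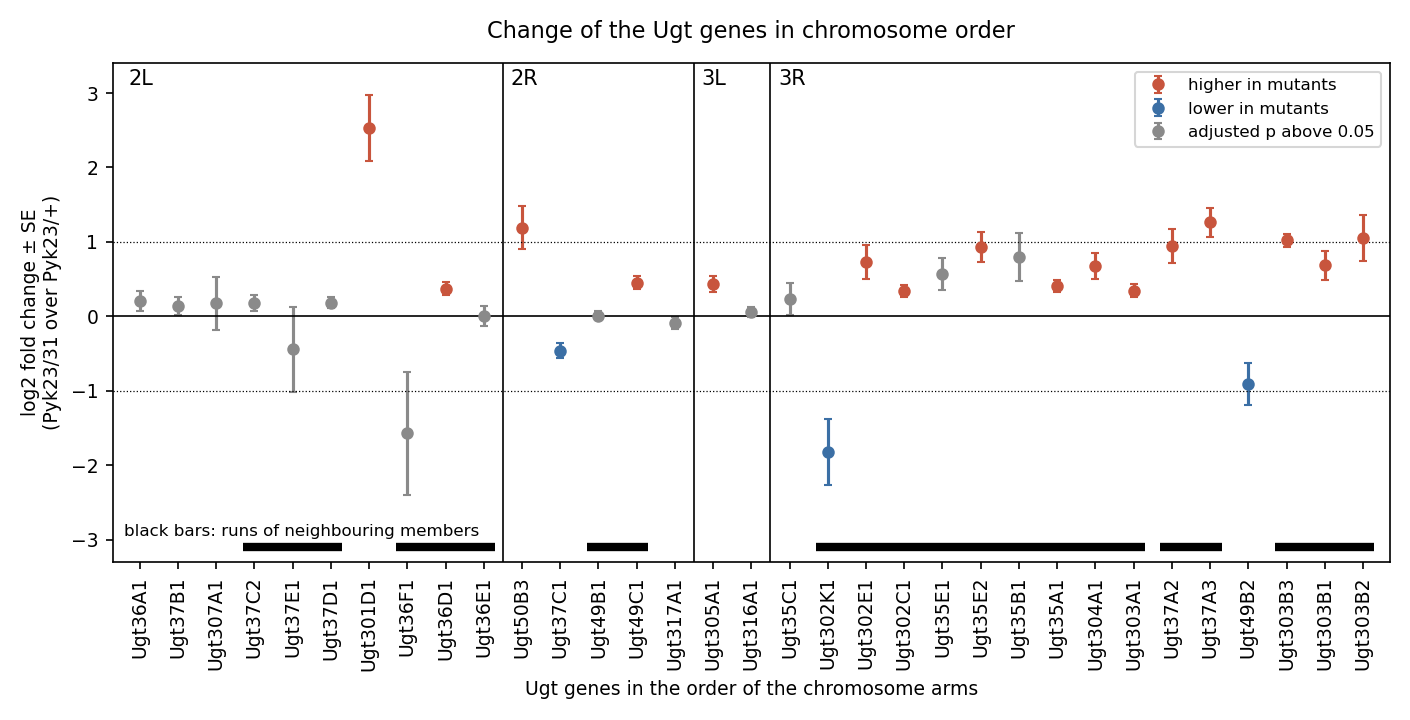
Log2 fold change (Pyk23/31 over Pyk23/+) with its SE for the 33 tested UGT genes in the order of the chromosome arms 2L, 2R, 3L and 3R; colours give the call at an adjusted p of at most 0.05, dotted lines mark 2-fold and black bars mark runs of members less than 20000 bases apart. On 3R, 11 of 16 genes were higher, against 2 of 10 on 2L, where *Ugt301D1* has the highest value of the family.

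Neither of the 2 most abundant members passed. Per kilobase of exon, *Ugt49B1* was the highest in controls (77.5 CPM per kb), followed by *Ugt37D1* (69.3 CPM per kb), *Ugt37C1* (40.1 CPM per kb) and *Ugt302C1* (39.6 CPM per kb). *Ugt49B1* lay at 136 ± 3.55 CPM in controls against 137 ± 7.23 CPM in mutants (SD, n = 3), with overlapping genotypes and a log2 change of 0.01 (SE 0.066). *Ugt37D1* measured 144.9, 137.6 and 123.9 CPM in control larvae against 149.6, 151.9 and 159.0 CPM in mutant larvae, a log2 change of 0.18 (SE 0.073, adjusted p = 0.0656) that passed under library totals alone and under stricter filtering. Both genes together made up 33.0% of the summed UGT level in controls and 29.9% in mutants.

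Among the other members that did not pass, *Ugt35C1*, described above, and 4 further genes had a mean level of at least 20 CPM over the libraries. *Ugt316A1* (38.4 ± 1.55 to 40.0 ± 1.83 CPM, SD, n = 3), *Ugt317A1* (36.8 ± 1.55 to 34.5 ± 1.98 CPM), *Ugt37C2* (22.2 ± 2.06 to 25.1 ± 2.98 CPM) and *Ugt36A1* (20.2 ± 1.45 to 23.2 ± 4.50 CPM) overlapped between genotypes. *Ugt36A1*, also known as Dorothy, is known for its expression in the pericardial cells beside the heart. *Ugt36E1*, which takes part in the discrimination of pheromones by olfactory neurons of males, was at 9.24 ± 1.43 CPM in controls against 9.25 ± 0.096 CPM in mutants (SD, n = 3). *Ugt37B1* (15.7 to 17.3 CPM) and *Ugt307A1* (1.09 to 1.22 CPM) did not pass either.

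The scarcest genes were at the floor of detection. *Ugt37E1* summed to 13 counts in control and 12 in mutant larvae, and *Ugt36F1* to 10 and 4, so a change of either was hardly measurable at this depth. *Ugt37A1* summed to 0 counts in control and 4 in mutant larvae, *Ugt35D1* had 0 counts in every library, and neither was tested. *Ugt36A1*, *Ugt307A1*, *Ugt36E1* and *Ugt49B1* share exonic sequence with a gene on the other strand (*CG15418*, *Pvf2*, *CG17597* and *CG44245*), and the counting used strand. Pairs on the other strand made up 26.8% of those at *Ugt36E1* and 21.5% of those at *Ugt49B1*. Pairs with several places in the genome were not counted, and neighbouring members with similar sequences, such as *Ugt35E1* and *Ugt35E2*, may lose or exchange reads. How similar they are was not measured here.

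Transcripts of genes for making or moving UDP-sugars changed in both directions, and the sugars themselves are not part of these data. Of the 13 genes reported from that list, 12 were tested, of which 3 were higher and 7 lower, with a median log2 fold change of -0.32. Over all genes tested, the shares were 22.2% higher and 26.0% lower, with a median of 0.015. *Pgm1* and *UGP*, of the direct route to UDP-glucose, were among those that rose. *Pgm1*, whose phosphoglucomutase makes glucose-1-phosphate, went from 280.3, 265.9 and 271.2 CPM in the controls to 353.7, 360.7 and 358.7 CPM in the mutants (log2 change 0.39, SE 0.057, adjusted p = 0.000415). *UGP*, whose product turns glucose-1-phosphate into UDP-glucose, went from 245.7, 241.6 and 212.7 CPM to 284.0, 263.3 and 293.5 CPM (log2 change 0.26, SE 0.075, adjusted p = 0.0157). In both genes the genotypes did not overlap. *mmy*, which encodes the pyrophosphorylase that makes UDP-N-acetylglucosamine for chitin and glycans, was also higher (log2 fold change 0.72).

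The 7 listed genes that were lower were *Galk* (log2 fold change -0.64) and *Galt* (-0.25) of galactose use, *Uxs* (-0.39) of UDP-xylose synthesis, *nst* (-0.51) of UDP-N-acetylglucosamine synthesis, *Pgm2a* (-0.61), the CMP-sialic acid synthase gene *Csas* (-1.27) and the nucleotide-sugar transporter gene *meigo* (-0.71). *sgl*, which encodes UDP-glucose dehydrogenase and so draws on UDP-glucose to make UDP-glucuronate, did not pass (0.16, adjusted p = 0.106), nor did the transporter gene *Efr*, and *frc* was listed at 0 in every library. Another list held 6 genes that use UDP-glucose or build on its products. Of these, the glycogen synthase gene *Glys* (0.17, adjusted p = 0.0498) and the glycogen branching enzyme gene *AGBE* (0.38) were higher. *Uggt* (-0.78), which reglucosylates misfolded glycoproteins, and *wol* (-0.50), which makes dolichyl-phosphate glucose, were lower, and *Tps1* and *GlcT* did not pass. These calls stand against 22.2% higher and 26.0% lower over all genes tested.

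Of 11 genes listed as regulators of detoxification genes, which include hormone and nuclear receptor genes, 5 were higher and 6 did not pass. Over all genes tested, 22.2% were higher and 26.0% lower. Those that rose were the stress response factor gene *cnc* (192.3 ± 6.58 to 239.9 ± 17.6 CPM, SD, n = 3, log2 fold change 0.32), *Keap1* (0.61), whose product holds Cnc back, the juvenile hormone receptor genes *gce* (0.59) and *Met* (0.42), and the ecdysone receptor gene *EcR* (0.89). The xenobiotic receptor gene *Hr96* did not pass (0.15, adjusted p = 0.171), nor did *maf-S*, *ss*, *tgo*, *ERR* and *usp*. Of 6 listed genes of ABC transporters, pumps that can move conjugates and drugs out of cells, *Mdr50* (1.23), *Mdr49* (0.65) and *rdog* (0.52) were higher and *Mdr65* (-0.60) was lower. *MRP* (0.04) and *Mrp5* (-0.61) did not pass.

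**Figure D4:**
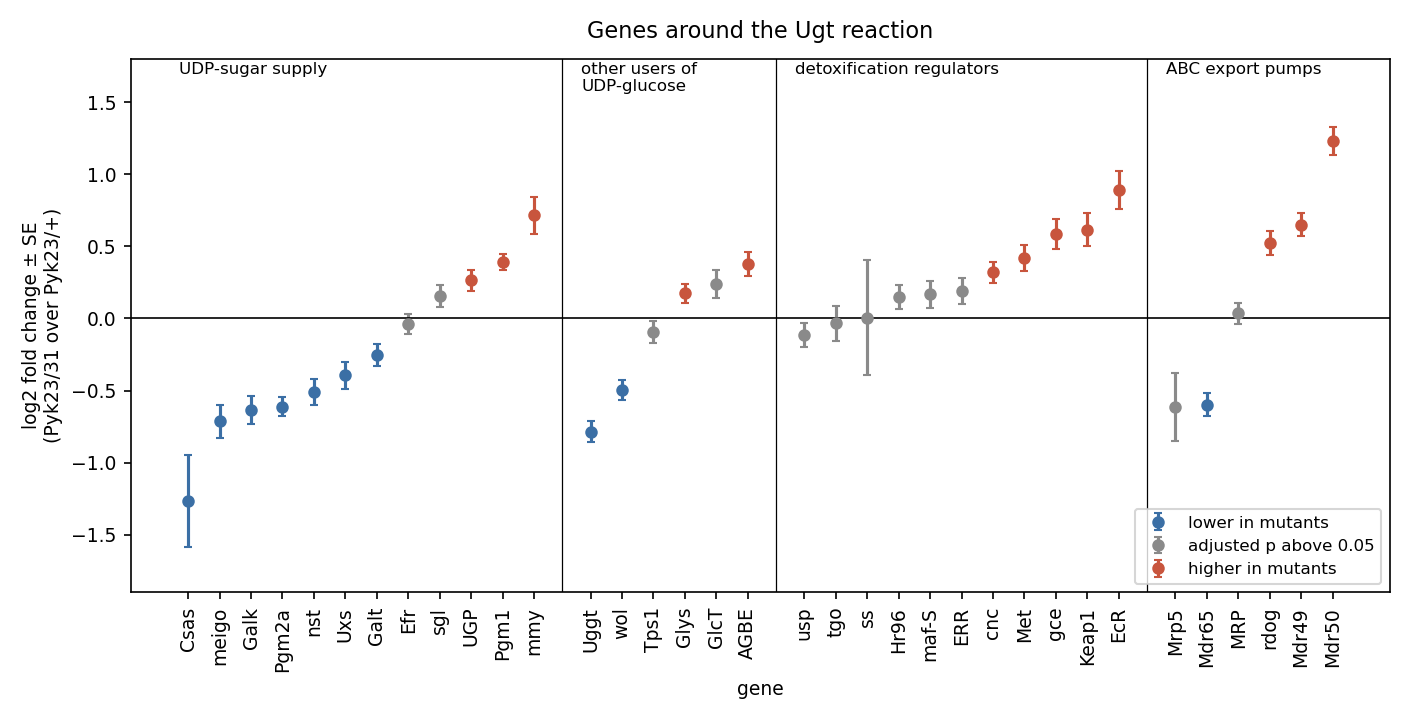
Log2 fold change (Pyk23/31 over Pyk23/+) with its SE for the tested genes of 4 lists around the UGT reaction: supply of UDP-sugars (12), other users of UDP-glucose (6), regulators of detoxification genes (11) and ABC export pumps (6). Colours give the call at an adjusted p of at most 0.05. The lists on UDP-sugars hold genes of both directions. The listed regulators that passed, hormone receptor genes among them, all lie above 0.

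The other large detoxification families were counted in the same way. Of 74 tested cytochrome P450 genes, whose enzymes oxidize compounds before conjugation, 36 were higher and 9 lower, 16 and 2 of them by at least 2-fold, with a median log2 fold change of 0.50 (48.6% higher and 12.2% lower, against 22.2% and 26.0% of all genes tested). Of 35 tested glutathione S-transferase genes, whose enzymes conjugate glutathione in place of a sugar, 6 were higher and 10 lower, 1 and 3 of them by at least 2-fold, with a median of -0.10 (17.1% higher and 28.6% lower, near the shares of all genes). The difference between these families and the UGT genes was not tested.

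Markers of several organs also moved in these larvae, and their part in the UGT values was not tested. The counts of markers here and above stand against 22.2% higher and 26.0% lower over all genes tested. The summed level of 11 midgut markers ranged from 2314 to 2840 CPM in controls and from 2759 to 3547 CPM in mutants, with 4 higher and 7 that did not pass. That of 9 fat body markers ranged from 10020 to 11620 CPM in controls and from 7714 to 9482 CPM in mutants, with 1 higher and 2 lower of 6 tested. Most of the fat body sum came from *apolpp* (mean 6903 CPM in controls, 5160 CPM in mutants), which was lower, and *FASN1* (3275 and 3048 CPM), which did not pass. *Apoltp* was the other lower gene (541.5 and 476.8 CPM), and *Lsp1gamma* was higher at a low level (1.67 and 2.86 CPM). The 6 tracheal markers summed to 1756 to 2544 CPM in controls and 3239 to 3856 CPM in mutants, with 3 higher. Most of that sum came from *verm* (mean 1012 CPM in controls, 1647 CPM in mutants) and *serp* (644.8 and 1130 CPM), which were higher, as was *trh*. *Gasp*, *btl* (log2 fold change 0.07) and *pio* (0.10) did not pass. The 7 chemosensory markers summed to 88.97 to 268.2 CPM in controls and 606.6 to 779.7 CPM in mutants, with *Obp83a* at 0 counts throughout. *Obp56d*, the only one of 5 tested that was higher, carried this rise, since the other 6 summed to 20.3 to 23.8 CPM in controls and 22 to 23 CPM in mutants. Of 6 markers of the nervous system, 3 were higher and 1 was lower, and lower levels were called for 3 of 6 muscle and 1 of 6 hemocyte markers. Of 7 salivary gland markers, 2 were tested, of which 1 was higher, and *Sgs5* was at 0 counts throughout.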

How the data were processed

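Poly(A)-selected, stranded RNA-seq (TruSeq Stranded mRNA) of 3 Pyk23/+ and 3 Pyk23/31 samples of whole L2 larvae was used. For each library the authors deposited raw counts of read pairs per gene in the layout of STAR, and STAR and BDGP6 are what the submitters' processing notes list, without versions. Kallisto, tximport and DESeq2, which the methods of the paper describe, made other tables that were not used. Counts of the strand that fits the kit were taken. Of the pairs assigned on either strand, 2.50% to 2.55% fell on the opposite one. Another 486 lines that name no gene held 0.0329% to 0.0461% of assigned pairs and were left out.

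Members were matched by FlyBase symbol in the BDGP6.54 annotation and an independent name table, which gave the same 35 genes. Coordinates are those of BDGP6.54. Genes with at least 12 counts over the 6 libraries were compared with edgeR 4.0.16 in R 4.3.3 (TMM factors 0.973 to 1.03, robust quasi-likelihood test, Benjamini-Hochberg). Calls were made at an adjusted p of at most 0.05, with and without a 2-fold change. The step was tested on simulated data. Alternatives were DESeq2 1.42.0, limma-voom (limma 3.58.1), no TMM, other filters, unstranded counts, a replicate block and each library left out. Members called at 2-fold were described in full, other called members by their values, and the rest by range. No pair of libraries of 1 genotype agreed within counting error (chi-square per degree of freedom 3.29 to 28.1), so none was merged. The detection floor reflects counting error alone. The counts were used as deposited, with no removal of PCR copies here, and such copies are not separate molecules. The members and lists were chosen with earlier results of these data known. A further gene of the list on UDP-sugar supply is not reported here, and the counts of that list leave it out.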

Additional observations from a re-analysis of the deposited data

How the results depend on the processing

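Over the 14 alternatives, 10 of the 16 higher members were called higher in every one, and *Ugt37C1* and *Ugt302K1* were called lower in every alternative that tested them. Counts of higher members ran from 12 (DESeq2, where *Ugt302E1*, *Ugt303A1*, *Ugt303B1* and *Ugt303B2* were lost) to 19 (library totals only). Those of lower members ran from 2 to 3, and DESeq2 lost *Ugt49B2* among them. Of all genes tested, 21.9% were higher under DESeq2 and 25.7% under library totals only. Over all alternatives, the shares of all genes ran from 16.3% to 25.9% higher and from 20.5% to 28.6% lower. No called member changed direction. Library totals without TMM moved the median of all genes to a log2 fold change of 0.07 and the summed UGT level to 1.23-fold. Stricter filtering by filterByExpr left *Ugt302K1* untested, and the count of members lower by at least 2-fold was then 0 in edgeR's quasi-likelihood test (1 by DESeq2 and by limma-voom on the main set of genes). Leaving out 1 library gave 3 to 5 members higher and 1 to 2 lower by at least 2-fold, with 3 higher and 2 lower without control replicate 3 and 2 lower without mutant replicate 3. Without replicate 3 of both genotypes, 2 were lower by at least 2-fold. The shares of all genes at 2-fold were counted for the main comparison only. The summed level was 1.151-fold to 1.195-fold higher with 1 library left out.

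Same-numbered replicates did not deviate together (correlations of -0.314, -0.096 and -0.31 over 5000 genes), so the numbers were not taken as pairs. With the replicate block, 16 members were higher and 2 lower, with 5 higher and 1 lower by at least 2-fold. Of all genes tested, 22.1% were then higher and 25.6% lower. *Ugt37A2* (adjusted p = 0.103) and *Ugt49B2* (0.0531) were then not called, and *Ugt35C1* was (0.0291). Genes with fewer than about 20 counts per library, such as *Ugt36F1*, *Ugt37E1* and *Ugt307A1*, are limited by depth.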
